A study of Mus musculus with 6 samples.

Results

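The 10 genes described here encode enzymes that remove superoxide and peroxides: the superoxide dismutases Sod1, Sod2 and Sod3, catalase (Cat), the glutathione peroxidases Gpx1, Gpx3 and Gpx4, the peroxiredoxins Prdx1 and Prdx3, and the thioredoxin reductase Txnrd1. They were taken by symbol, as a list drawn up with earlier results of these data known, and each matched 1 of the 35122 mouse genes with deposited counts. RNA came from adipocytes that floated after epididymal fat was digested with collagenase, taken from male C57BL/6 mice on standard chow, with 1 library per mouse. The 3 control mice were PU.1 fl/fl: a single exon of Spi1, the gene encoding the transcription factor PU.1, was flanked by loxP sites and left in place. The 3 aPU.1KO mice were AdipoqCre_PU.1 fl/fl: they carried the same floxed alleles together with Cre recombinase driven by the adiponectin (Adipoq) promoter, which is active in adipocytes. Ages were labelled 10 to 11 months, and the study describes the mice as older than a year. The deletion is directed at adipocytes and not at macrophages, which also use PU.1, and the fraction collected was not pure adipocytes.

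Superoxide is made by leakage of electrons from the mitochondrial respiratory chain and by oxidases. Superoxide dismutases convert it to hydrogen peroxide, with Sod1 working in the cytosol, Sod2 in the mitochondrial matrix and Sod3 outside the cell. Catalase in peroxisomes, glutathione peroxidases that draw on glutathione, and peroxiredoxins that draw on thioredoxin then reduce peroxides, and Txnrd1 recharges cytosolic thioredoxin with NADPH. In fat tissue, mature adipocytes have mitochondria and peroxisomes engaged in lipid handling, and the enzymes are known as their guard against oxidation of lipids and proteins.

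The question asked of the data was whether the RNA of these enzymes differed between aPU.1KO and control adipocyte fractions. Values are CPM, the counts of a gene relative to the library size after TMM scaling, and log2 fold changes, positive where aPU.1KO was higher, came from edgeR's quasi-likelihood test over 13925 genes, with Benjamini-Hochberg adjustment over all of them. None of the 10 genes passed an adjusted p of 0.05 in that test, against 0.237% of all genes tested. Sod1, Gpx3, Gpx4 and Prdx3 were higher at an unadjusted p under 0.05 (4 of 10, against 11.9% of all genes) and none was lower (0 of 10, against 13.7%). Without control mouse 1 this count was 2 (Sod1 and Prdx3). In either direction, 1718 of 14020 genes passed that threshold there, against 3575 of 13925 with all mice. Gpx3 also fell short of the threshold without control mouse 3 or aPU.1KO mouse 2, and Gpx4 without aPU.1KO mouse 1. DESeq2, the tool the study names, called 3 of the 10 higher at an adjusted p under 0.05, namely Sod1, Gpx3 and Prdx3, where it called 3.51% higher and 7.48% lower of the 16684 genes to which it gave an adjusted p. The genes belong to different compartments: Sod1 and Prdx3 work in the cytosol and the mitochondria, and Gpx3 is secreted.

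Total counts were 20550252 to 24310144 in 5 libraries and 69283842 in control mouse 1, and the 10 genes together held 0.379% to 0.456% of each total. Spi1, the targeted gene, had 24.3, 6.35 and 26.7 CPM in control mice 1, 2 and 3 and 3.2, 1.22 and 4.17 CPM in aPU.1KO mice 1, 2 and 3. The groups did not overlap, but the counts are per gene and include exons outside the floxed one. Control mouse 2 stood apart from its group in macrophage markers: the 16 markers summed to 558.5 CPM there, to 2043 and 1965 CPM in the other two control mice, and to 242.5 to 377.9 CPM in the aPU.1KO mice. The number of genes past an adjusted p of 0.05 in edgeR was 33 with all mice, 1193 when control mouse 2 was left out, and 0 to 8 when any other mouse was.

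**Figure D1:**
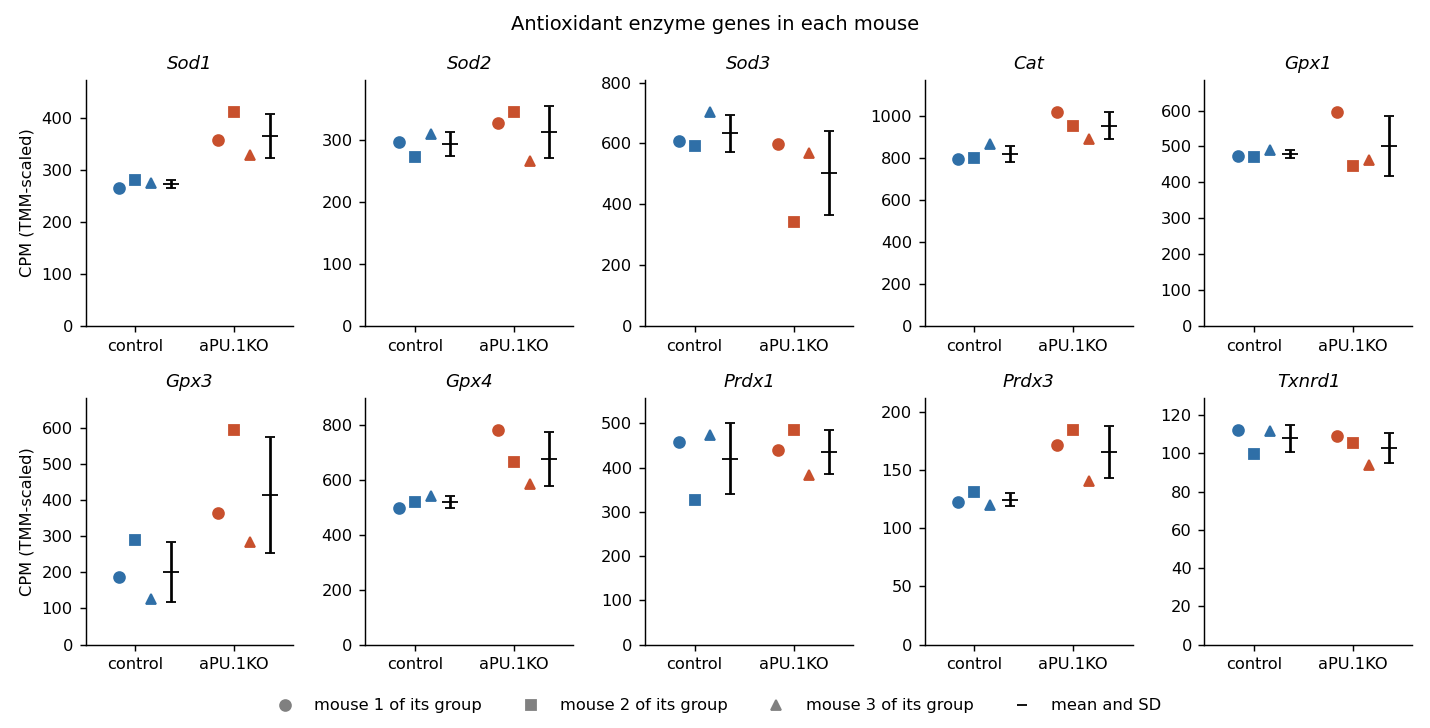
TMM-scaled CPM (vertical axes, from 0) of the 10 enzyme genes in the 3 control (blue) and 3 aPU.1KO (red) mice; each symbol is 1 mouse, and the bars give the mean and SD of a group. The groups do not overlap for Sod1, Cat, Gpx4 and Prdx3, and the mice of a group spread most widely for Gpx3.

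Sod1, the copper and zinc superoxide dismutase of the cytosol (ENSMUSG00000022982; chromosome 16, 90220754 to 90226329, plus strand, GRCm38), had 264.2, 279.5 and 273.8 CPM in control mice 1, 2 and 3 and 356.8, 411.1 and 327.7 CPM in aPU.1KO mice 1, 2 and 3. Each aPU.1KO mouse lay above each control mouse, and the lowest of them was mouse 3. The means were 272.5 ± 7.74 CPM (SD, n = 3) and 365.2 ± 42.3 CPM (SD, n = 3), so that the aPU.1KO mice differed more among themselves than the control mice did. Its log2 fold change was 0.42 (SE 0.10, 95% confidence interval 0.18 to 0.67), with an adjusted p of 0.0856 from edgeR and of 0.00806 from DESeq2. A log2 fold change lower than that of Sod1 was found for 91.5% of the genes tested. The estimate stayed between 0.33 and 0.50 with each mouse left out.

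Sod2, the manganese enzyme of the mitochondrial matrix (ENSMUSG00000006818; chromosome 17, 13006846 to 13040063, plus strand), had 297, 273.6 and 310.9 CPM in the control mice and 328, 346 and 266.2 CPM in the aPU.1KO mice. The groups overlapped, since aPU.1KO mouse 3 was the lowest of all 6 and the other two aPU.1KO mice were the highest. For Sod2 the log2 fold change was 0.093 (SE 0.12, interval -0.19 to 0.38; edgeR adjusted p = 0.659), and it ranged from 0.013 without aPU.1KO mouse 2 to 0.20 without aPU.1KO mouse 3. The count ratio of Sod2 to Sod1, in which the scaling of a library cancels, was 1.12, 0.979 and 1.14 in the control mice and 0.919, 0.842 and 0.812 in the aPU.1KO mice. This ratio did not overlap between the groups, with fewer Sod2 counts per Sod1 count in each aPU.1KO mouse, and it was not tested.

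Sod3, the secreted superoxide dismutase (ENSMUSG00000072941; chromosome 5, 52363791 to 52371418, plus strand), had 606.9, 591.5 and 703.9 CPM in the control mice and 598.2, 342.7 and 567.9 CPM in the aPU.1KO mice. Most of the distance between the group means came from aPU.1KO mouse 2, while mouse 1 lay within the control range. The log2 fold change was -0.33 (SE 0.21, interval -0.84 to 0.17; edgeR adjusted p = 0.366), and without aPU.1KO mouse 2 it was -0.12. Relative to Sod1, Sod3 counts were 2.3, 2.12 and 2.57 times as many in the control mice and 1.68, 0.834 and 1.73 times as many in the aPU.1KO mice. Sod3 was thus the most counted superoxide dismutase of every mouse except aPU.1KO mouse 2, where it lay below both Sod1 and Sod2.

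Cat, the catalase of peroxisomes (ENSMUSG00000027187; chromosome 2, 103453849 to 103485160, minus strand), had 793.7, 798.3 and 863.1 CPM in the control mice and 1018, 949.9 and 889.7 CPM in the aPU.1KO mice. It had the highest CPM of the 10 genes in each mouse, and its groups did not overlap. The gap between them was narrow: aPU.1KO mouse 3 and control mouse 3 lay close together. For Cat it came to a log2 fold change of 0.22 (SE 0.10, interval -0.017 to 0.46; adjusted p = 0.221 from edgeR and 0.163 from DESeq2), and to 0.094 with library totals alone.

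Gpx1, the glutathione peroxidase of the cytosol and mitochondria (ENSMUSG00000063856; chromosome 9, 108338903 to 108340343, plus strand), had 473, 471.2 and 491.3 CPM in the control mice and 596.4, 446.1 and 462 CPM in the aPU.1KO mice. Only aPU.1KO mouse 1 was above the control range and the other two aPU.1KO mice were below it. The log2 fold change of 0.068 (SE 0.13, interval -0.24 to 0.37; edgeR adjusted p = 0.77) became -0.086 without aPU.1KO mouse 1. The direction of Gpx1 thus turned with 1 mouse.

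Gpx4 reduces lipid hydroperoxides within membranes and is known as the enzyme that guards cells against ferroptosis. This gene (ENSMUSG00000075706; chromosome 10, 80047166 to 80056439, plus strand) had 495.5, 518.9 and 540.9 CPM in the control mice and 779.3, 663.3 and 585.3 CPM in the aPU.1KO mice. The groups did not overlap, and aPU.1KO mouse 1 was the highest. Gpx4 had a log2 fold change of 0.38 (SE 0.12, interval 0.088 to 0.68), and an adjusted p of 0.122 from edgeR and 0.0566 from DESeq2. The count ratio of Gpx4 to Gpx1, free of any scaling, was 1.05, 1.1 and 1.1 in the control mice and 1.31, 1.49 and 1.27 in the aPU.1KO mice. These ratios did not overlap either, and no test was made of them.

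Gpx3, the glutathione peroxidase secreted into plasma (ENSMUSG00000018339; chromosome 11, 54902453 to 54910377, plus strand), had 187, 290.2 and 126.7 CPM in the control mice and 365, 593.4 and 284.4 CPM in the aPU.1KO mice. Of the 10 genes it had the largest log2 fold change, 1.04 (SE 0.37, interval 0.17 to 1.92), and 98.9% of the genes tested had a lower one. Its adjusted p was 0.143 from edgeR and 0.0344 from DESeq2. It also varied most among the mice of a group, with an SD of 41.1% of the mean in the control mice and 38.7% in the aPU.1KO mice. The groups overlapped, since control mouse 2 lay just above aPU.1KO mouse 3. Without control mouse 2 the log2 fold change was 1.39, and without aPU.1KO mouse 2 it was 0.69. A stretch before the Gpx3 start listed by RefSeq, which lies inside the gene as annotated since another transcript starts further upstream (chr11:54902604-54902771, plus strand, GRCm38.p6, sequence from RefSeq) is printed because it holds the core letters GAGGAAG that PU.1 is known to bind, here on the minus strand and in capitals as their complement, 103 to 97 bases before the start:
Gpx3: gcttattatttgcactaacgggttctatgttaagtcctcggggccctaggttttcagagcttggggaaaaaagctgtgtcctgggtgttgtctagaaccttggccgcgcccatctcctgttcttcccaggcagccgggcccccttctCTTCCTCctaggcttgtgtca

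Those letters stood on either strand in the 250 bases before the start of 10.6% of 32851 mouse promoters, and in 2 of the 14 listed for 9 of the 10 genes (1 of Gpx3 and 1 of 3 of Txnrd1). A match is a description of the sequence and not a binding site.

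Prdx1, the peroxiredoxin of the cytosol (ENSMUSG00000028691; chromosome 4, 116685544 to 116700822, plus strand), had 458.6, 327.6 and 472.9 CPM in the control mice and 439.1, 484.2 and 384 CPM in the aPU.1KO mice. The groups overlapped, with control mouse 2 the lowest of all 6. The log2 fold change was 0.054 (SE 0.16, interval -0.34 to 0.45; edgeR adjusted p = 0.86) and turned to -0.11 without control mouse 2. Prdx3, the peroxiredoxin of the mitochondria (ENSMUSG00000024997; chromosome 19, 60864051 to 60874556, minus strand), had 122.3, 131.1 and 120.4 CPM in the control mice and 171.7, 184.3 and 140.7 CPM in the aPU.1KO mice. The groups did not overlap, and the aPU.1KO mice stood in the same order of mice (2, 1, 3) as for Sod1. Prdx3 thus differed by 0.41 on the log2 scale (SE 0.11, interval 0.14 to 0.68), with an adjusted p of 0.098 from edgeR and 0.0322 from DESeq2. It lay between 0.32 and 0.52 with each mouse left out. The count ratio of Prdx3 to Prdx1 overlapped between the groups (0.255 to 0.4 in the control mice and 0.366 to 0.391 in the aPU.1KO mice). So did the count ratios of Sod3 to Sod2, Gpx3 to Gpx1 and Gpx4 to Gpx3. How often the ratios of other gene pairs separate the groups was not computed.

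Txnrd1, the cytosolic thioredoxin reductase (ENSMUSG00000020250; chromosome 10, 82833951 to 82897712, plus strand), had 112.1, 99.9 and 111.8 CPM in the control mice and 109, 105.5 and 94.1 CPM in the aPU.1KO mice. It was the least variable of the 10 genes over the 6 mice, with a highest value 1.19 times the lowest, and the groups overlapped. The log2 fold change was -0.070 (SE 0.089, interval -0.28 to 0.14; edgeR adjusted p = 0.657), and it ranged from -0.13 without control mouse 2 to -0.007 without aPU.1KO mouse 3, with -0.20 for library totals alone.

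**Figure D2:**
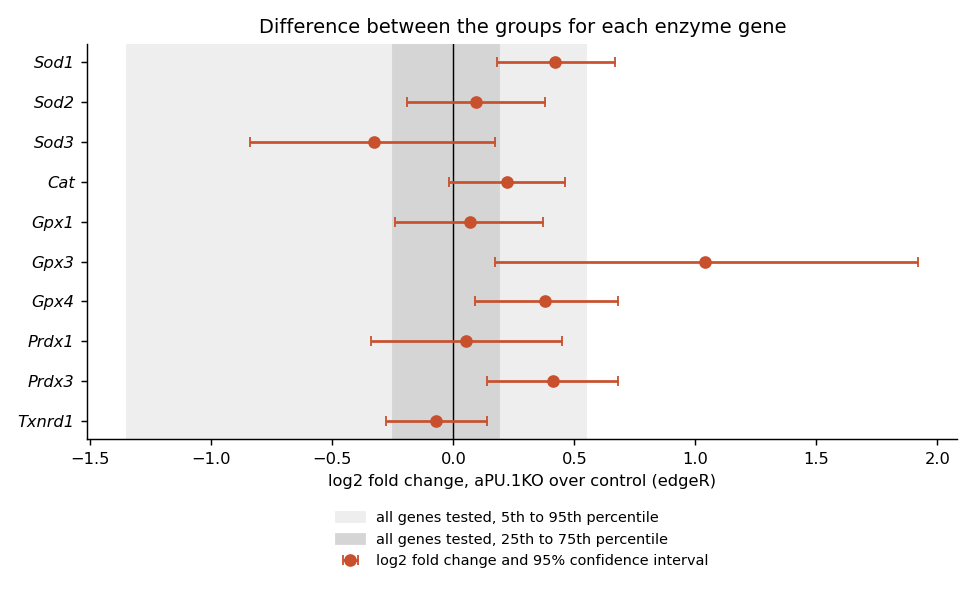
Log2 fold change of each gene (horizontal axis, aPU.1KO over control, edgeR) with its 95% confidence interval, over grey bands that hold the middle of all 13925 genes tested. The intervals of Sod1, Gpx3, Gpx4 and Prdx3 lie above 0, and only the estimate of Gpx3 lies beyond the 95th percentile of all genes, 0.55.

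NRF2 is the transcription factor best known for switching on peroxide-scavenging genes, and it binds sites with the core letters TGACNNNGC. The 250 bases upstream held these letters, on either strand, in 10.2% of the 32851 mouse promoters and in 3 of the 14 listed for the enzyme genes, those of Sod1, Prdx1 and Txnrd1. The 3 stretches are printed so that their matches can be compared with the values above; each stops short of annotated exons, the matches are on the minus strand, and capitals mark them. They are Sod1 chr16:90220512-90220753, with the match 56 to 48 bases before the start, Prdx1 chr4:116685349-116685543, with the match at 133 to 125 bases, and Txnrd1 chr10:82859009-82859178, with the match at 92 to 84 bases before a start inside the annotated gene, all on the plus strand in GRCm38.p6, from RefSeq:
Sod1: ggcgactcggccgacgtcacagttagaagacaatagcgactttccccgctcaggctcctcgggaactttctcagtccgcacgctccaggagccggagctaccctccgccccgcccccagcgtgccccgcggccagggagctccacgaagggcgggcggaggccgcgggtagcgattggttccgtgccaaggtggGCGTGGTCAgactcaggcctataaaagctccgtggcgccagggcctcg
Prdx1: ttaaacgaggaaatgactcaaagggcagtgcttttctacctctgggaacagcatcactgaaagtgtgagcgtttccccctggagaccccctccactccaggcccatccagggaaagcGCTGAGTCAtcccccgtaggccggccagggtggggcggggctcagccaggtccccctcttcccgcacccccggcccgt
Txnrd1: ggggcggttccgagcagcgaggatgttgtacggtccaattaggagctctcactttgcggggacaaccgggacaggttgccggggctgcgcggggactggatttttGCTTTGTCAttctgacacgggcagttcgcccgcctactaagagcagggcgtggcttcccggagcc

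Of the 3 genes with this core, Sod1 was higher in each aPU.1KO mouse, and Prdx1 and Txnrd1 overlapped between the groups. The other members with a listed promoter had no match to it in this window, which says only that these letters are not there.

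In CPM, 4 of the 10 genes (Sod1, Cat, Gpx4 and Prdx3) did not overlap between the groups and were higher in the aPU.1KO mice, against 16.7% of all genes tested, and none was lower without overlap, against 15.5%. An exact permutation test of 3 mice against 3 cannot give a two-sided p under 0.1, so none is quoted. The median log2 fold change of the 10 genes was 0.16, beside 0.014 for all genes tested, with 8 positive and 2 negative. The scale bore on this count: with library totals alone the median of all genes moved to -0.11, and 3 of the 10 genes were higher without overlap (Sod1, Gpx4 and Prdx3) and 1 lower (Sod3), against 7.59% and 22.6% of all genes on that scale. In TPM, counts per length whose sum is fixed over all genes of a library, 2 were higher (Sod1 and Prdx3) and 2 lower (Sod3 and Txnrd1), against 3.28% and 31.2% of all genes on that scale. Sod1 and Prdx3 were the genes higher without overlap on each of the 6 scales tried. In bulk RNA, fewer cells of a type and less RNA per cell cannot be told apart.

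**Figure D3:**
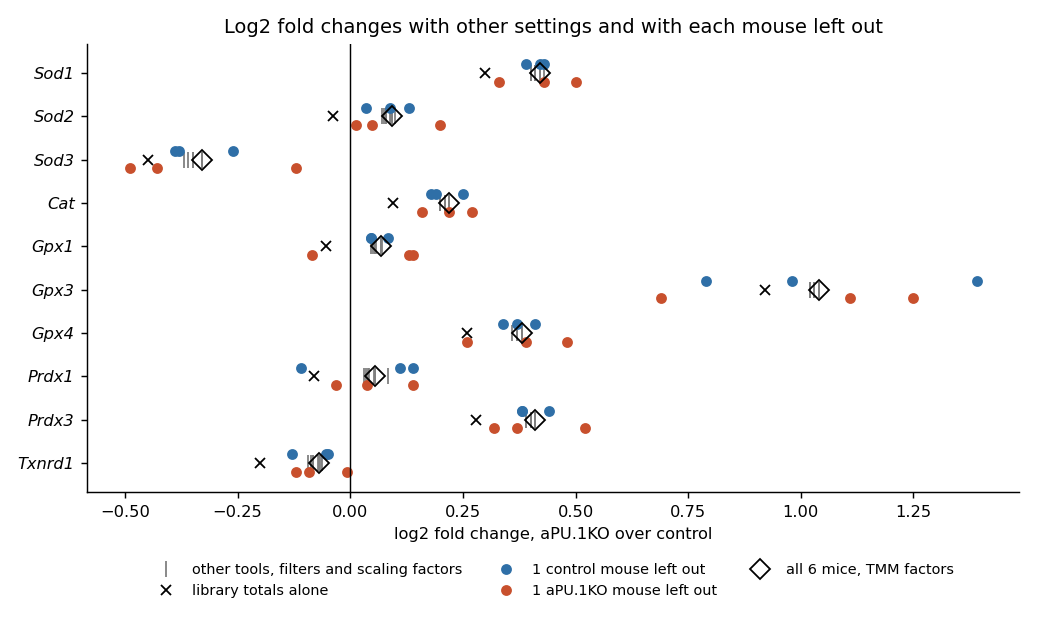
Log2 fold change of each gene (horizontal axis, aPU.1KO over control) in all 6 mice with TMM factors (diamonds), with other tools, filters and scaling factors (grey bars), with library totals alone (crosses), and with 1 control (blue) or 1 aPU.1KO (red) mouse left out. The values of Sod1, Cat, Gpx3, Gpx4 and Prdx3 stay above 0 and those of Sod3 and Txnrd1 below it, while Sod2, Gpx1 and Prdx1 reach both sides.

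Levels of different genes were compared per length, in TPM over the union of annotated exons, in the control mice. Gpx1 was the most abundant at 1096 ± 41.3 TPM (SD, n = 3), followed by Cat at 1034 ± 62.1 TPM and Gpx4 at 992.5 ± 50.4 TPM. These 3 kept this order in each control mouse, but their ranges over the mice overlapped, and the order was not tested. Below them came Sod3 (560.3 ± 61.7 TPM), Prdx1 (456.1 ± 93.7 TPM) and Gpx3 (364.7 ± 143.6 TPM), whose ranges overlapped from each to the next, and Prdx3 (278 ± 7.91 TPM), which overlapped with Gpx3. Sod1 (226.5 ± 5.08 TPM), Sod2 (97 ± 7.81 TPM) and Txnrd1 (50.3 ± 4.03 TPM) followed, each apart from its neighbours. All 10 were abundant: from 80.4% (Txnrd1) to 99.4% (Gpx1) of the genes tested had a lower level.

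The order depended on the length used, above all for Sod1, whose annotated exons together span 3970 bp while its protein-coding transcript has 641 bp. With the length of the longest protein-coding transcript, Sod1 had 1039 ± 22.9 TPM and lay below Gpx4 (1273 ± 57.1 TPM) and Gpx1 (1091 ± 32.1 TPM) and above Cat (765.5 ± 40 TPM). Sod2 and Txnrd1 were the lowest pair with either length. No member shares exons with another annotated gene, so the length of Sod1 comes from its own models.

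**Figure D4:**
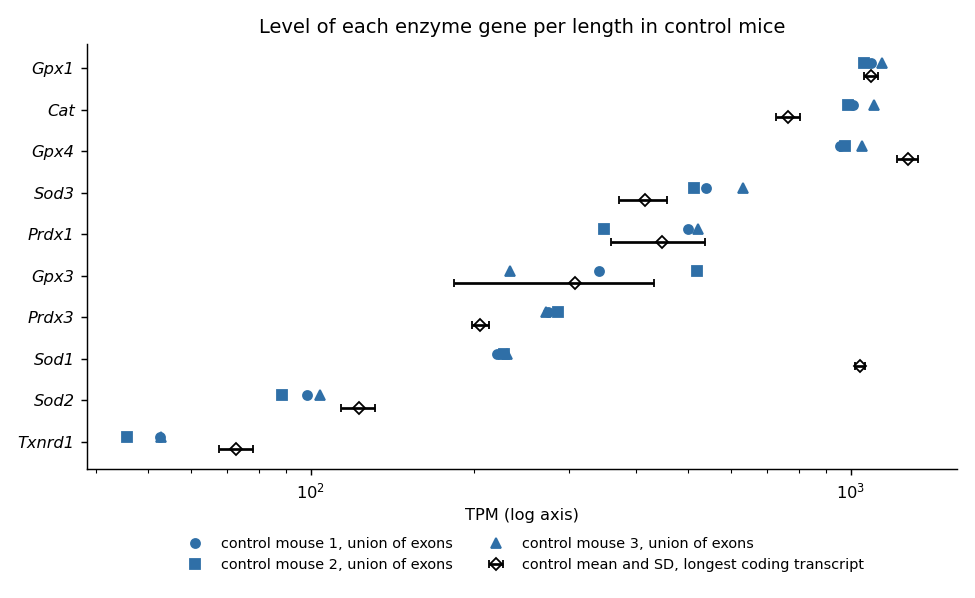
Level of each enzyme gene in the control mice in TPM (horizontal log axis): blue symbols are single mice with the union of exons as the length, and open diamonds give the mean and SD with the longest protein-coding transcript. Sod1 moves from 226.5 to 1039 TPM between the lengths, and Gpx1, Cat and Gpx4 lie at 765.5 TPM or more with both.

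Reads of near-identical copies could be split by the quantification. Stretches of at least 150 bp at 95% identity or more were found for Sod1 (the pseudogene Gm8566, 97.8% over 465 bp, with 0 counts in each library), Gpx4 (Gpx4-ps2, 99.7% over 762 bp, with counts that came to 0.048% of those of Gpx4, and a pseudogene not in the count table, 95.1% over 535 bp) and Prdx1 (the pseudogenes Gm21399 and Gm7204, with at most 1 count in a library). The matches of Sod2 to 7 other genes were short, 193 bp at most, and the counts of the 4 of them in the table came to 91.8% of those of Sod2, mostly from Tmem245 (80.1%) and Churc1 (9.61%). How reads of these stretches were divided was not tested. Gpx1, Gpx3, Sod3, Cat, Prdx3 and Txnrd1 had no such match.

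The other genes of the pathway were taken from fixed lists, and no gene of any of them passed an adjusted p of 0.05 in edgeR's test. Their counts at an unadjusted p under 0.05 are to be read against the 11.9% of all genes that were higher and the 13.7% that were lower at that threshold. Of the other peroxidases and the superoxide dismutase chaperone, 10 of 13 genes were abundant enough to test, with a median log2 fold change of 0.17. At an unadjusted p under 0.05, 3 were higher (Prxl2a, a peroxiredoxin-like protein, at 0.39, Gpx8, a peroxidase of the endoplasmic reticulum, at 0.32, and Prdx2, a cytosolic peroxiredoxin, at 0.18) and none was lower. Prxl2b had the highest level per length of this list in the control mice, 539.8 TPM, and a log2 fold change of -0.026. Prxl2a had 275.7, 305 and 293.4 CPM in the control mice and 422.7, 370.3 and 349.7 CPM in the aPU.1KO mice, without overlap, with an adjusted p of 0.0903 from edgeR and 0.0171 from DESeq2.

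Among the 18 genes of the thioredoxin and glutaredoxin system, all tested, the median was 0.081, and 4 of 18 were higher at an unadjusted p under 0.05 (11.9% of all genes) and none lower (13.7%). They were Glrx3, an iron-sulfur glutaredoxin, at a log2 fold change of 0.42, Txn2, the mitochondrial thioredoxin that serves Prdx3, at 0.30, Txnip, an inhibitor of thioredoxin and the gene of this list with the highest level per length, at 0.42, and Txnrd2, the mitochondrial thioredoxin reductase, at 0.30. Txnrd2 was named after its value was seen. Txn2 had 68.6, 71.4 and 66.7 CPM in the control mice and 82.2, 92.7 and 78.8 CPM in the aPU.1KO mice. Its groups did not overlap, but neither test called it, with an adjusted p of 0.101 from edgeR and 0.059 from DESeq2. Glrx3 and Txnip did not overlap either, with DESeq2 adjusted p-values of 0.00412 and 0.0474.

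For glutathione synthesis and recycling, 15 of 16 genes were tested, with a median of 0.10. Chac1, which degrades glutathione, was higher at an unadjusted p under 0.05 (log2 fold change 1.04), and Ggt5, a gamma-glutamyl enzyme of the cell surface, and Slc7a11, the cystine importer, were lower (-0.57 and -1.50). Slc7a11 was sparse, at 1.01 to 2 CPM in the control mice and 0.332 to 0.904 CPM in the aPU.1KO mice. Me1, which makes NADPH, had the highest level per length of this list, 729.9 TPM, with groups that overlapped (log2 fold change 0.23).

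Of the 16 genes of the NRF2 axis, all tested, the median was -0.025, and 1 gene was higher and 1 lower below the unadjusted threshold of 0.05. The higher one was Tkt, transketolase of the pentose phosphate pathway, with 458.2, 491.3 and 441 CPM in the control mice and 892.3, 1012 and 646.8 CPM in the aPU.1KO mice. The groups stood well apart, at a log2 fold change of 0.88 (adjusted p = 0.0753 from edgeR and 0.000114 from DESeq2). The lower one was Hmox1, heme oxygenase, at -0.72, whose groups overlapped (41.6 to 87.5 CPM in the control mice and 33.3 to 50.6 CPM in the aPU.1KO mice). Taldo1, the transaldolase of the same pathway as Tkt, had a log2 fold change of 0.33. Ftl1, the ferritin light chain, had the highest level per length, 4762 TPM, and a log2 fold change of -0.31.

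Gpx1, Gpx3, Gpx4 and Txnrd1 are selenoproteins, which need a dedicated machinery to insert selenocysteine. Of 21 genes for selenoprotein synthesis and other selenoproteins, 20 were tested, with a median of 0.017. At an unadjusted p under 0.05, 5 of 20 were higher (11.9% of all genes) and 1 lower (13.7%). The higher genes were Sephs2, which makes the selenium donor, at a log2 fold change of 0.66, Pstk, which phosphorylates the selenocysteine tRNA precursor, at 0.43, Trnau1ap, which binds that tRNA, at 0.26, and Selenok and Selenoo, named after their values were seen, at 0.25 and 0.28. Selenop, the secreted selenium carrier, was the 1 lower gene (-0.44) and had the highest level per length, 1154 TPM. Selenop had 1067, 840 and 1070 CPM in the control mice and 682.6, 660.2 and 851.7 CPM in the aPU.1KO mice, where mouse 3 lay just above control mouse 2.

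A further list holds the enzymes that make superoxide or peroxide. Of 23 oxidase genes 18 were tested, with a median of -0.077, and 6 were lower and 1 was higher at an unadjusted p under 0.05. Ncf1 and Cyba, subunits of the phagocyte NADPH oxidase, had log2 fold changes of -2.29 and -2.07. Ncf1 had 24.8, 6.35 and 24 CPM in the control mice and 4.01, 3.3 and 4.03 CPM in the aPU.1KO mice. Control mouse 2 was again nearest to the aPU.1KO mice, as it was for the macrophage markers. These subunits are abundant in macrophages, and the part of macrophages in these values was not tested. The adjusted p of Ncf1 and Cyba was 0.0783 from edgeR for both, and 5.57e-05 and 6.48e-05 from DESeq2. The higher gene was Maob, a monoamine oxidase of mitochondria named after its value was seen, at 0.48. Aoc3, an amine oxidase abundant in adipocytes, had the highest level per length, 1150 TPM, and overlapping groups (log2 fold change 0.20).

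Catalase is imported into peroxisomes, so peroxisome biogenesis was the last list. All 20 genes were tested, and the median was 0.20. At an unadjusted p under 0.05, 8 of 20 were higher (11.9% of all genes) and 1 was lower (13.7%). Without overlap between the groups, 11 of 20 were higher (16.7% of all genes) and 1 was lower (15.5%). Pex3, needed to form the peroxisome membrane, had 40.9, 47 and 39.7 CPM in the control mice and 56.7, 58.5 and 54.9 CPM in the aPU.1KO mice. Pex11a, which acts in peroxisome division, had 33.9, 37.6 and 35.4 CPM in the control mice and 63.1, 63.1 and 42.6 CPM in the aPU.1KO mice. Both were without overlap, at log2 fold changes of 0.42 and 0.66, with adjusted p-values of 0.0766 and 0.0817 from edgeR and 0.00786 and 0.00831 from DESeq2. Slc25a17, a carrier of the peroxisome membrane, had 0.30, and Abcd2, a fatty acid transporter with the highest level per length of this list (520.7 TPM), had 0.35 with overlapping groups.

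**Figure D5:**
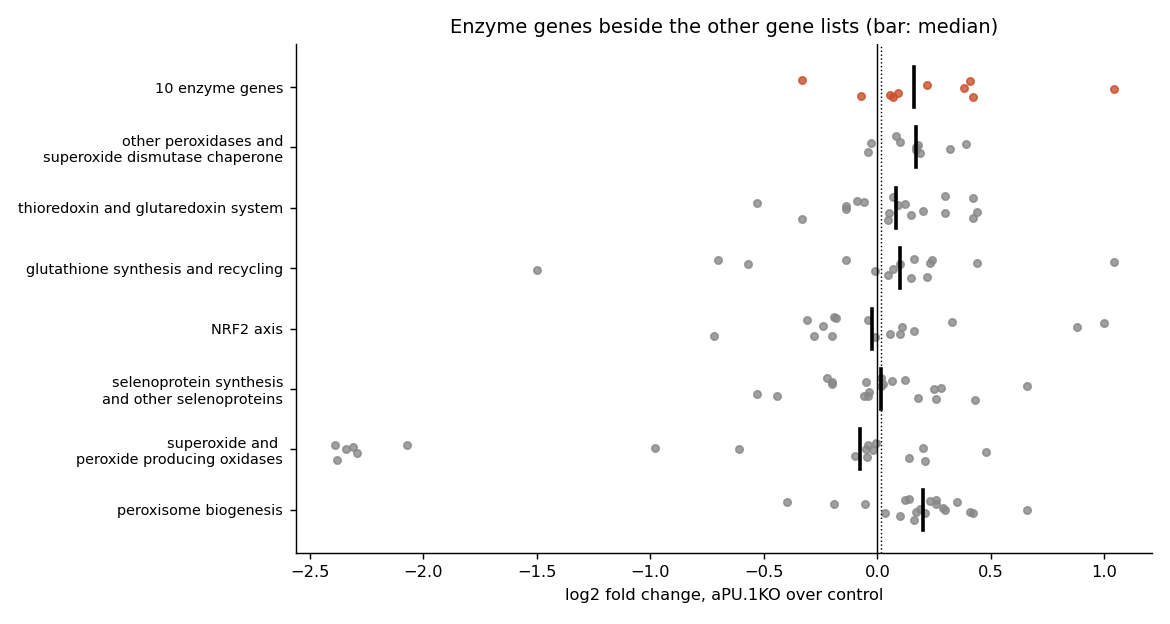
Log2 fold change (horizontal axis, aPU.1KO over control) of each tested gene of the 10 enzyme genes (red) and of 7 other lists (grey), with a thick bar at the median of each list and a dotted line at the median of all genes, 0.014. Medians run from -0.077 for the oxidases to 0.20 for peroxisome biogenesis, and the subunits of the phagocyte oxidase form the group near -2.

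Markers of cell types moved with the groups, and their part in the results above was not tested. At an unadjusted p under 0.05 in edgeR, 11.9% of all genes tested were higher and 13.7% lower. The marker counts in this paragraph and the next are to be read against those shares. The 12 adipocyte markers summed to 43656 to 50521 CPM in the control mice and 56033 to 66175 CPM in the aPU.1KO mice, with 9 of 12 higher at the unadjusted threshold and 1 lower (Lep, which encodes leptin and was named after its value was seen). Averaged over all 6 mice, Car3, Fabp4 and Plin4 had the highest CPM among them. The 16 macrophage markers were 15 lower and none higher at that threshold, and none was at 0. The 14 hepatocyte markers summed to 46.2 to 71.8 CPM and 18 to 23.6 CPM, with 13 of 13 tested lower. Alb, which encodes albumin, made up most of these sums, at 26 to 46.1 CPM and 15.9 to 21.9 CPM, while Apoa1 had 3.37 to 4.38 CPM and 0 to 0.136 CPM. Fgb and Cyp3a11, named after their values were seen, had 0 counts in all 3 aPU.1KO libraries. The 11 progenitor and fibroblast markers summed to 1842 to 2352 CPM and 994.3 to 1510 CPM (9 lower). The neutrophil markers (8, with 2 of 4 tested lower) summed to 22.3 to 39.8 CPM and 13.2 to 19.8 CPM, and the 9 lymphocyte markers (1 of 5 tested lower) to 4.95 to 7.3 CPM and 2.54 to 4.36 CPM.

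Other lists overlapped between the groups in their sums. These were the 9 endothelial markers (607.4 to 890.3 CPM and 365.9 to 803.1 CPM, 1 lower), the 9 mesothelial markers (5.51 to 23 CPM and 8.1 to 10.8 CPM), the 8 markers of smooth muscle and pericytes (660.9 to 950.1 CPM and 533.6 to 694.6 CPM, 2 lower) and the 7 of red blood cells (586.9 to 786.5 CPM and 352 to 1146 CPM), with none higher at that threshold. Red blood cells hold much Prdx2, catalase and Gpx1, and their markers were highest in aPU.1KO mouse 2, as Prdx2 was, and lowest in aPU.1KO mouse 1, where Gpx1 and Cat were highest. The part of red blood cells in these values was not tested. The 9 markers of epididymal epithelium summed to 2.48 to 3.29 CPM and 2.98 to 3.81 CPM, and 6 of them, with the epididymal peroxidase Gpx5, had 0 counts in all libraries, which allows up to 0.152 CPM (3 counts) in aPU.1KO mouse 1, where the limit was highest.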

How the data were processed

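RNA was sequenced from 6 mice, 3 control and 3 aPU.1KO, with 1 library per mouse. The authors quantified reads with Salmon (option validateMappings, version not given in the sources used here; build GRCm38 in the submitters' processing notes) and summed transcript estimates to genes. The deposited values are estimated counts, already whole numbers, and they were not normalized. The mice are numbered 1 to 3 in the order of their labels, which give no pairing or batch. Libraries of a group differed beyond sampling noise (a chi-square of at least 18.96 per degree of freedom).

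Symbols, lengths and gene coordinates came from GENCODE M21 (GRCm38), which named 35031 of the 35122 genes; the rest held 0.0367% of counts. Genes were filtered with filterByExpr, scaled by TMM and tested in R 4.3.3 with edgeR 4.0.16 (glmQLFit and glmQLFTest, Benjamini-Hochberg); the common biological coefficient of variation was 0.194. DESeq2 1.42.0 and limma-voom (limma 3.58.1) were alternatives, as were RLE and upper quartile factors, a minimum of 10 counts in every library, no filter, robust dispersion, legacy = FALSE, control library 1 thinned to the median total, and each mouse left out. Library totals alone and the TPM scale were added after the data were seen. TPM used all genes with a length. The study names DESeq2; edgeR was the main test here. On simulated counts for 13925 genes edgeR called 2 of 67 genes changed by 0.5 on the log2 scale, 29 of 67 changed by 1, 57 of 66 changed by 2, and 7 unchanged genes; DESeq2 called 12, 43, 61 and 47. The simulated counts were drawn independently for each gene and few genes were changed, so these call rates need not hold for the data. Copies were searched with BLAST 2.17.0, promoter sequences were those of RefSeq, and plots were made in matplotlib 3.10.9 under Python 3.11.15. Intervals cover the fitted spread between mice, and a limit set by 0 counts covers counting error only.

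The members and lists were chosen with earlier results of these data known. The genes named are the 10 members, Spi1, from each of the 7 pathway lists the 3 genes with the smallest p and the 1 with the highest level per length in the control mice, from each of the 11 marker lists up to 3 with the highest CPM, and near-identical copies of members; others are said to be named after their values were seen. Results for some genes of these lists are left out of the text.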

Additional observations from a re-analysis of the deposited data

How the results depend on the processing

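With 3 mice per group, the 10 genes' log2 fold changes kept their sign and their side of an adjusted p of 0.05 in 151 of 160 recomputations. DESeq2 made 3 calls (Sod1, Gpx3 and Prdx3) where edgeR made 0 under each of its settings. The signs that turned were those of Gpx1 without aPU.1KO mouse 1 (-0.086), of Prdx1 without control mouse 2 (-0.11) or without aPU.1KO mouse 2 (-0.032), and, with library totals alone, of Sod2 (-0.038), Gpx1 (-0.054) and Prdx1 (-0.080). As each mouse was left out, Gpx1 ranged from -0.086 to 0.14 and Prdx1 from -0.11 to 0.14, and the number of the 10 genes higher at an unadjusted p under 0.05 ranged from 2 (without control mouse 1: Sod1 and Prdx3) to 5 (without aPU.1KO mouse 3), while 1718 and 3922 of all genes, in either direction, passed that threshold there, against 3575 with all mice, and the number of the 10 that were lower stayed at 0. Members lower without overlap numbered 1 with library totals alone (22.6% of all genes) and 2 in TPM (31.2%), and members higher without overlap 2 in TPM (3.28%). The cause was not tested.

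Over all genes, edgeR's calls numbered 33, against 5 with at least 10 counts in every library, 146 with no filter, 1833 with DESeq2, and 0 to 1193 with 1 mouse left out. The length of the longest protein-coding transcript gave control levels of 1039 TPM for Sod1, 122.6 for Sod2, 414.7 for Sod3, 765.5 for Cat, 1273 for Gpx4, 205.9 for Prdx3 and 72.8 for Txnrd1. No paired analysis was possible because the labels do not say which mice shared a litter, although the study describes the controls as littermates. Each of the 10 genes had at least 1987 counts in every library, and the depth of the 5 shallower libraries was not varied.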
